A study of Mus musculus with 4 samples.

Results

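Of the 16066 genes with an assigned name among the 20171 genes measured in mouse oocytes, zygotes, preimplantation embryos and embryonic stem cells (mESC), 123 were transient at the early 2-cell (E2C) stage. They were selected on 3 averages. The mean over the E2C cells had to be 10 or more copies per 100,000 UMIs, at least 2 times the mean over zygotes, and at least 2 times the mean over late 2-cell (L2C) cells. A UMI is a molecular tag that counts 1 captured mRNA once, so that a level is a share of the molecules counted in a cell. Predicted genes named Gm with a number and names that end in Rik were left out of the 123, and 18 of them passed the same limits. Because zygote, E2C and L2C values chose the genes, every contrast that holds one of these stages is given as a description and without a test.

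The cDNA of single cells carried a cell barcode and UMIs and was sequenced whole with long PacBio reads. The 161 cells came from 10 MII oocytes, 9 zygotes, 10 E2C cells of 5 embryos, 11 L2C cells of 6 embryos, 17 cells of 5 4-cell embryos, 26 cells of 4 8-cell embryos, 38 cells of 4 16-cell embryos, 22 32-cell cells, 13 blastocyst cells and 5 mESC. The oocyte, zygote or embryo was the replicate wherever the cell's name gave it, and cells of 1 embryo were averaged. Embryo numbers may have been used again in another sequencing run, which would join cells of separate embryos under 1 number, and p-values measure only the spread between these embryos. All females were C57BL/6J and 6 to 8 weeks old, treated with gonadotropins, and mated, other than for oocytes, with DBA/2 males (DBA/2J in the labels, DBA/2NCrl in the methods). Non-mated MII oocytes were taken 20 h after hCG, zygotes at 22 to 24 h, E2C embryos at 30 to 32 h, L2C embryos at 46 to 48 h, 4-cell embryos at 54 to 56 h, 8-cell embryos at 68 to 70 h, 16-cell and 32-cell embryos at 78 to 80 h and blastocysts at 88 to 90 h. The mESC were E14 Tg2A cells in culture.

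The egg carries a large store of maternal mRNA, and the embryo first lives on it. Part of this store is held with short poly(A) tails, is lengthened and translated after ovulation and fertilization, and is later cleared, while the embryo's own transcription begins weakly in the zygote and E2C embryo and strongly in the L2C embryo. Reverse transcription from an oligo(dT) primer needs a poly(A) tail, so that a longer tail on a stored mRNA and newly made mRNA both raise what is captured. Which of these acted on the 123 genes was not tested.

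The summed level of *Gdf9*, *Bmp15*, *Zp3*, *Mos* and *H1foo*, all 5 known for the oocyte, ranged from 1725 to 2949 in oocytes, from 626 to 2961 in zygotes and from 252 to 457 in E2C embryos. It was 33.4 to 128 in L2C, 29.9 to 193 in 4-cell, 15.9 to 135 in 8-cell and 6.89 to 221 in 16-cell embryos. It did not vanish later, with 0 to 37.8 in 32-cell cells, 94.3 to 264 in blastocyst cells and 43.7 to 120 in mESC. The range in blastocyst cells overlapped that at E2C, and why was not tested. Markers of the late 2-cell stage (*Zscan4d*, *Zfp352*, *Tdpoz4*, *Obox6* and *Duxf3*) summed to 4.87 to 25.8 at E2C and to 52.0 to 92.8 at L2C. This set was not highest at L2C, with 39.6 to 114 in 4-cell and 49.5 to 117 in 8-cell embryos, and *Duxf3* was at 0 at L2C. *Bmp15* was both a marker and 1 of the 123 genes. The names of the cells give no run. For oocytes and zygotes it was inferred from the number that ends each barcode in the study's list of cells. By that number the 3 zygotes of run 3 stood apart from the other zygotes. They held *H1foo* at 1686 to 1903, a range that overlapped that of all oocytes (1140.2 to 1864) and lay above the zygotes of run 1 (594 to 888) and run 2 (331 to 529). The runs of the E2C and later embryos were not known here, so that run and stage cannot be told apart at E2C.

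The 123 genes together made up 3261 copies per 100,000 UMIs in the median E2C embryo, with 2846 in the lowest and 3518 in the highest. Oocytes held 662 to 1278 with a median of 878, and zygotes 733 to 1834 with a median of 1310.0. In L2C embryos the sum was 443 to 957 with a median of 634, and in 4-cell embryos 363 to 531 with a median of 382. No embryo of another stage reached the lowest E2C embryo. The sum stayed low afterwards, at 372 to 454 in 8-cell embryos, 387 to 554 in 16-cell embryos, 417 to 699.7 in blastocyst cells and 555 to 727 in mESC. The 3 zygotes of run 3 held 733 to 1106, those of run 1 held 1277 to 1468 and those of run 2 held 1457 to 1834. The single oocyte of run 2, oocyte 6, held the highest oocyte sum.

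**Figure D1:**
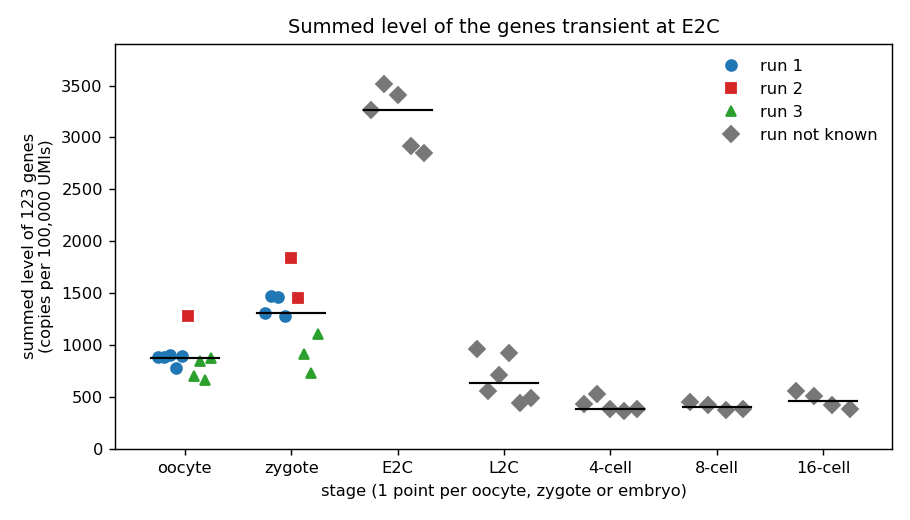
Summed level of the 123 genes (y axis, copies per 100,000 UMIs) in each oocyte, zygote and embryo from oocyte to 16-cell (x axis), with color and shape for the sequencing run where it was inferred and a black line at the median of each stage. The 5 E2C embryos sit between 2846 and 3518, above all others, and the zygotes of run 3 sit at 733 to 1106, below the other zygotes.

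A level is a share of a cell's UMIs, so that a gain of these mRNAs and a loss of others cannot be told apart from levels alone, and UMIs per embryo are given beside them. A zygote held 194072 to 389775 UMIs and an E2C embryo, with both sister cells summed, 123051 to 197339. The 123 genes gave 3486 to 6687 UMIs per E2C embryo (median 5654), against 1731 to 6072 per zygote (median 3180) and 1181 to 3068 per oocyte (median 1663). Each of the 123 genes had more UMIs per E2C embryo than per zygote on average, by 1.21 to 3.89 times with a median of 1.505. In the 5 L2C embryos with both cells the 123 genes gave 539 to 972. Zygote, E2C and L2C levels chose the genes, so that the selection itself favours these differences between those stages. UMIs counted in a cell also move with how well its mRNA was captured, so that more molecules in an embryo and a better capture of the same molecules cannot be told apart.

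Most of the 123 genes were modest in level and close to the limit of the selection. The E2C mean had a median of 17.2 over the genes, 71 were below 20 and 9 were at 50 or more. The E2C mean was 2.38 times the zygote mean at the median and at most 5.95 times, for *Olfr976*, and it was 4.97 times the L2C mean at the median. For 104 genes the smaller of both folds was below 3, and for 2 it was at least 5. *Trps1* had no UMI in any L2C cell. The lowest E2C embryo was above the highest zygote for 63 of the 123 genes (2.86% of all 11682 genes tested) and above the highest L2C embryo for 90 (14.6% of all genes), counts that the selection itself favours. Within the E2C stage the sister cells of 1 embryo differed by a median of 0.40 in absolute log2(value + 1), and cells of different embryos by 0.51.

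The genes just inside the level limit were *Chfr* at 10.1, *Slc39a6* at 10.3 and *Olah* at 10.4 copies per 100,000, and those just outside it were *Sf3b3* at 9.87, *Max* at 9.74 and *Rph3a* at 9.72. At the limit on E2C over zygote, *Nlrp5* (2.00 times), *Peak1* (2.01 times) and *Gda* (2.02 times) were inside, and *Mrps33* (1.998 times), *Wdr82* (1.997 times) and *Rbm7* (1.99 times) were outside. At the limit on E2C over L2C, *Mtfr1l* (2.03 times), *Ybx3* (2.15 times) and *Paip2b* (2.16 times) were inside, and *Pik3cd* (1.997 times), *Osbpl9* (1.98 times) and *AA792892* (1.96 times) were outside. The zygote side of the selection depended on the run. With the zygotes of run 1 alone 115 genes would be selected, 96 of them among the 123, with those of run 2 alone 100 (56 shared) and with those of run 3 alone 218 (117 shared). The E2C mean lay above the zygote mean of each of the 3 runs for all 123 genes, a count that the limit on E2C over zygote itself favours.

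**Figure D2:**
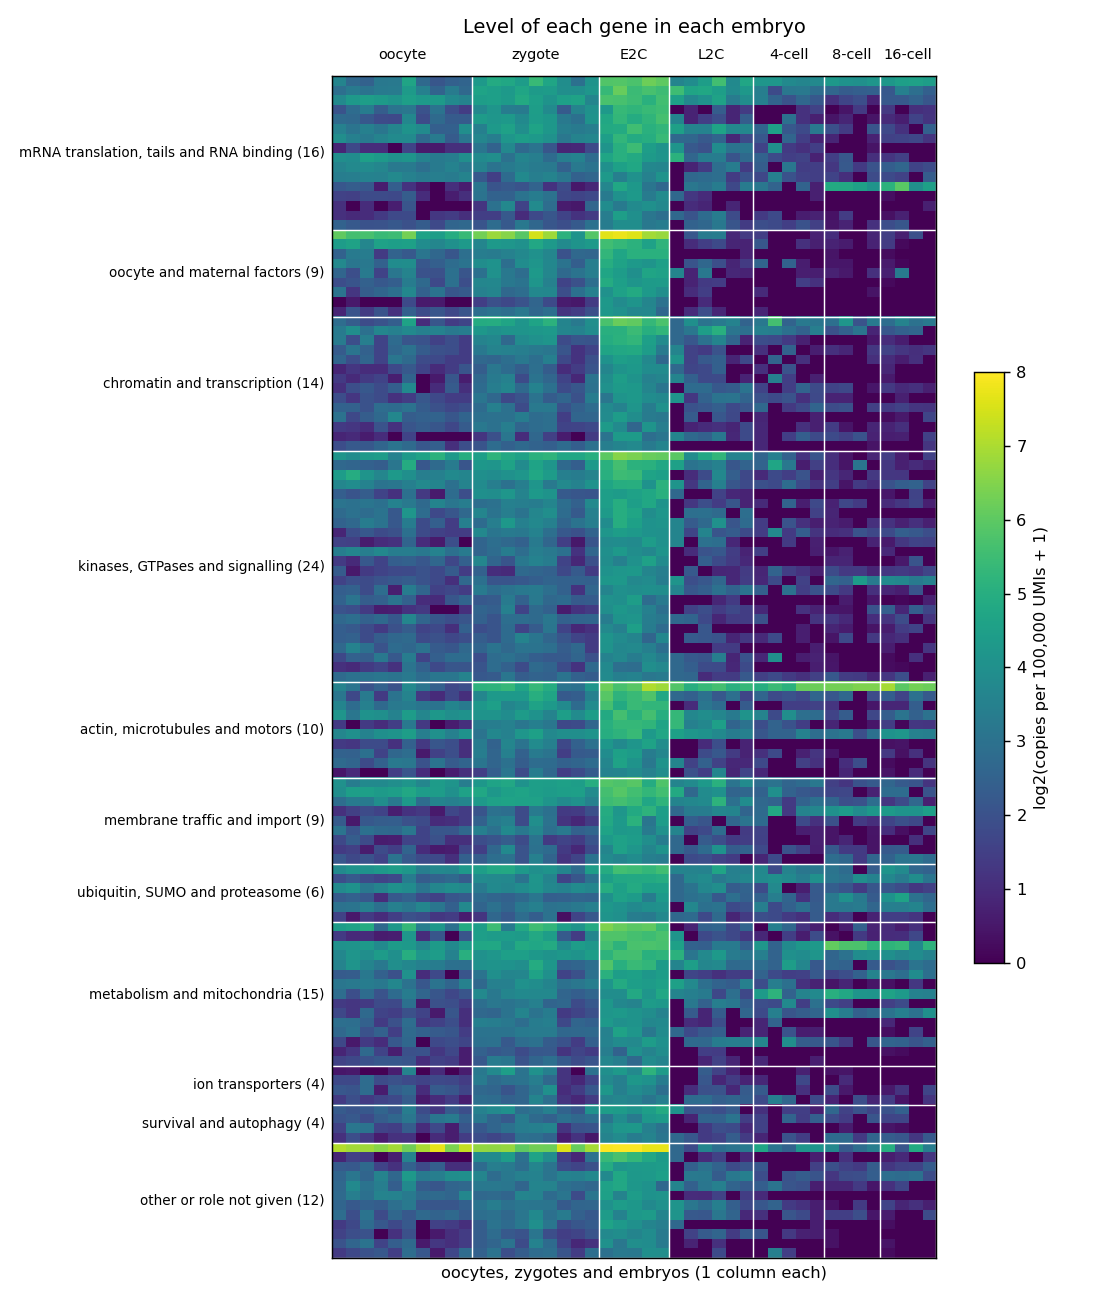
Level of each of the 123 genes (1 line each, grouped by role, with the number of genes in brackets) in each oocyte, zygote and embryo (1 column each, grouped by stage), as log2(copies per 100,000 UMIs + 1) on the color scale. The 5 E2C columns are brighter than the zygote and L2C columns in every role, which the selection fixes, and a few lines such as those of Cfl1 and Ybx3 are bright again at the 8-cell and 16-cell stages.

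The 16 genes of mRNA translation, poly(A) tails and RNA binding held a summed 438 copies per 100,000 at E2C, against 109.6 in oocytes, 169.7 in zygotes and 125 in L2C cells. Several act directly on the cap, the tail or the ribosome. *Eif4e1b* (36.2 at E2C) is the egg's form of the cap-binding protein, *Eif4enif1* (45.0) binds cap-binding proteins and holds mRNA back from translation, and *Pabpc1l* (12.7) is the embryonic poly(A)-binding protein. *Paip2b* inhibits the poly(A)-binding protein, *Eef2k* (35.9) is the kinase that slows elongation, and *Pnrc1* takes part in mRNA decay. *Nup214* (34.4) and *Ddx19a* (31.8), a pore protein and a helicase, serve the export of mRNA from the nucleus. The others were *Qk* at 17.5, *Ybx3* at 13.8, *Rbfox2* at 10.99, *Rbm26* at 14.1 and *Hnrnpul2* at 24.3, all proteins that bind RNA, with *Rbpms2*, and *Tdrd1* at 13.2 and *Marf1* at 12.0, a Tudor protein of the piRNA pathway and a regulator of mRNA in meiosis.

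*Rbpms2*, an RNA-binding protein, was at 55.8, 57.7, 52.0, 74.5 and 64.3 in the 5 E2C embryos (mean 60.8 ± 8.84, SD, n = 5). Zygotes held 6.77 to 41.4 with a median of 20.6, oocytes 3.41 to 24.6 with a median of 5.58 and L2C embryos 11.1 to 46.4 with a median of 17.4. All E2C embryos lay above all others of these stages, and the later levels stayed above the oocyte median, with 17.3, 17.4, 12.8, 11.5 and 12.6 in 4-cell and 17.9, 21.8, 22.7 and 20.9 in 16-cell embryos. *Paip2b* was at 39.7, 70.3, 42.7, 50.2 and 43.8 in E2C embryos (mean 49.3), 14.4 to 25.2 with a median of 19.3 in zygotes and 4.87 to 19.6 with a median of 8.80 in oocytes. In L2C embryos it was at 13.3 to 44.5 with a median of 22.8, so that the highest L2C embryo overlapped the E2C range. *Pnrc1* was at 16.5, 32.1, 43.3, 21.1 and 16.2 in E2C embryos (mean 25.9) and at 0 to 2.32 with a median of 1.03 in oocytes, 1 of the 4 lowest oocyte levels relative to E2C (4.05%). It was at 0.770 to 12.4 with a median of 4.69 in zygotes and 2.96 to 16.7 with a median of 7.40 in L2C embryos, and 0.335 was the highest of the 8-cell embryos, with 0 in all 16-cell embryos. *Hnrnpul2* and *Rbm26* were at the other end, with oocyte means of 59.6% and 72.3% of their E2C means. *Hnrnpul2* was at 25.3, 32.1, 27.9, 19.4 and 16.7 in E2C embryos (mean 24.3), 8.77 to 22.1 with a median of 14.4 in oocytes, 5.89 to 14.4 with a median of 9.75 in zygotes and 3.21 to 33.4 with a median of 7.49 in L2C embryos. *Rbm26* was at 18.5, 9.86, 15.6, 10.5 and 16.2 in E2C embryos (mean 14.1), 8.97 to 12.6 with a median of 10.0 in oocytes, 1.80 to 12.9 with a median of 5.96 in zygotes and 0 to 6.48 with a median of 4.29 in L2C embryos. For both genes the oocyte range overlapped the E2C range, and the zygote median lay below the oocyte median.

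The 9 oocyte and maternal factors held 346 copies per 100,000 at E2C, 94.6 in oocytes and 13.4 in L2C cells. *Bmp15*, a growth factor that the oocyte secretes, was at 199, 215, 194, 119 and 109 in E2C embryos, a mean of 167 ± 49.5 (SD, n = 5). It was at 20.9 to 79.6 with a median of 42.5 in oocytes and 16.1 to 179 with a median of 77.2 in zygotes, where the 3 zygotes of run 3 had a mean of 35.8 against 85.0 in run 1 and 146 in run 2. L2C embryos held 0 to 9.30 with a median of 2.55. Every E2C embryo exceeded every oocyte and L2C embryo, while 3 zygotes reached into the E2C range. *Fmn2*, a formin that builds the actin needed to move the meiotic spindle, was at 45.8, 39.0, 34.4, 22.7 and 35.7 in E2C embryos (mean 35.5), 11.7 to 23.2 with a median of 19.6 in oocytes, 11.4 to 26.6 with a median of 17.4 in zygotes and 0 to 2.48 with a median of 0.894 in L2C embryos. *Olfr976*, an olfactory receptor gene, had the largest E2C over zygote value and the lowest oocyte level relative to E2C (2.95%). It was at 18.2, 13.6, 16.8, 11.4 and 7.04 in E2C embryos (mean 13.4), 0.423 to 5.13 with a median of 2.29 in zygotes, 0 to 2.50 with a median of 0 in oocytes and 0 to 0.985 with a median of 0 in L2C embryos, and it had no UMI in any 4-cell, 8-cell or 16-cell embryo. With an oocyte median of 0 its values go against the name of the group, in which it was the 1 gene of 9 not called lower from oocyte to 4-cell. The rest of this group were *Nlrp5* at 22.4, *Nlrp9b* at 32.3 and *Nlrp4e* at 19.8, of a family that includes maternal-effect genes, *Lhx8* at 12.6, a transcription factor of the oocyte, *Umodl1* at 21.5 and *Xlr3a* at 21.5. *Nlrp9b*, *Nlrp4e* and *Xlr3a* have close relatives in the genome, and the split of reads among relatives is uncertain.

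The 14 genes of chromatin and transcription held 274 copies per 100,000 at E2C and 53.4 in oocytes. *Kdm2b*, a histone demethylase that also recruits a Polycomb complex, was at 51.4, 71.5, 64.4, 38.8 and 51.8 in E2C embryos (mean 55.6), 8.47 to 34.1 with a median of 23.9 in zygotes and 1.02 to 23.3 with a median of 3.25 in oocytes. L2C embryos held 4.83 to 14.96 with a median of 8.06, and 4-cell embryos 8.12, 47.5, 4.82, 8.35 and 7.56. E2C embryos lay above all oocytes, zygotes and L2C embryos, and 1 of 5 4-cell embryos reached their range. *Csrnp2*, a nuclear protein of the cysteine-serine-rich family, was at 7.30, 19.4, 19.5, 6.34 and 7.57 in E2C embryos (mean 12.0) and 0 to 2.08 with a median of 0.257 in oocytes, with 0 to 7.79 with a median of 1.62 in zygotes and 0.861 to 11.1 with a median of 5.12 in L2C embryos. Its 3 lower E2C embryos overlapped the zygote and L2C ranges. Enzymes and subunits of chromatin complexes in this group were *Smarca2* at 27.4, *Kmt2d* at 13.8, *Setdb1* at 13.1, *Asxl1* at 14.4, *Jade2* at 14.7 and *Mllt3* at 14.9: an ATPase of the SWI/SNF complex, a methyltransferase that activates, one that silences, and cofactors of histone modification and elongation. DNA-binding factors were *Zfp280b* at 35.2, *Hivep1* at 21.6, *Tfap2e* at 14.6, *Nfil3* at 12.8 and *Trps1* at 10.7, and *Tspyl1* at 13.01 is a nucleosome assembly protein of the TSPY family.

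The 24 genes of kinases, GTPases and signalling were the largest role, with 469.9 copies per 100,000 at E2C against 143 in oocytes, 191 in zygotes and 98.7 in L2C cells. *Spry4*, an inhibitor of the receptor kinase to MAP kinase pathway, was at 62.5, 93.4, 82.4, 69.9 and 66.9 in E2C embryos (mean 75.04), 10.8 to 33.6 with a median of 18.9 in oocytes, 21.8 to 35.7 with a median of 27.5 in zygotes and 10.6 to 61.2 with a median of 20.0 in L2C embryos. All 5 E2C embryos were above the highest L2C embryo, the closest neighbour. *Ttk*, the kinase that starts the spindle checkpoint, was at 16.0, 17.5, 18.2, 11.4 and 9.72 in E2C embryos (mean 14.6), 0.464 to 3.92 with a median of 2.42 in oocytes, 0.917 to 5.67 with a median of 3.81 in zygotes and 0 to 3.75 with a median of 0.844 in L2C embryos. *Stk3*, a kinase of the Hippo pathway, was at 12.6, 10.2, 21.9, 9.30 and 5.94 in E2C embryos (mean 12.0), 1.12 to 4.42 with a median of 2.79 in oocytes, 0.847 to 7.75 with a median of 2.73 in zygotes and 0 to 3.55 with a median of 0 in L2C embryos. *Ttk* did not overlap any of these stages, whereas the lowest E2C embryo for *Stk3* was below the highest zygote. *Chfr*, a ubiquitin ligase of the mitotic checkpoint, had the highest oocyte level relative to E2C (75.01%) and *Fyn*, a Src-family kinase, the third highest (63.4%). *Chfr* was at 13.3, 10.1, 10.7, 7.99 and 8.64 in E2C embryos (mean 10.1), 5.86 to 11.1 with a median of 7.47 in oocytes, 3.63 to 7.79 with a median of 4.65 in zygotes and 0.985 to 5.56 with a median of 2.67 in L2C embryos. *Fyn* was at 14.8, 18.5, 14.2, 12.0 and 16.7 in E2C embryos (mean 15.2), 6.73 to 12.4 with a median of 9.59 in oocytes, 1.27 to 9.67 with a median of 6.18 in zygotes and 0 to 3.65 with a median of 1.36 in L2C embryos. Both were lower in the median zygote than in the median oocyte before the E2C level.

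Other members of this role covered several branches of signalling. G protein subunits were *Gng12* at 27.4, *Gng3* at 24.7 and *Gnas* at 14.2, and small GTPases or their exchange factors were *Tiam1* at 32.7, *Rapgef5* at 21.3, *Plekhg1* at 13.2 and *Rras2* at 12.9. Kinases were *Mapk3* at 15.4, *Map2k4* at 11.6, *Cdk20* at 15.2, *Pak1* at 13.8, *Pak7* at 11.4 and *Stk36* at 10.7, which include a terminal MAP kinase, an upstream kinase of the stress branch and a pair of p21-activated kinases, and *Peak1* at 19.9 is a pseudokinase. Kinases of inositol phosphates were *Ippk* at 17.8 and *Ppip5k2* at 12.1. *Ppp3r1* at 23.3 is the regulatory subunit of calcineurin, *Hpcal1* at 10.5 a calcium sensor and *Ankrd44* at 34.8 a subunit of a phosphatase complex.

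The 10 genes of actin, microtubules and motors held 329 copies per 100,000 at E2C and 61.6 in oocytes. *Cfl1*, the cofilin that severs actin filaments, was at 74.96, 50.2, 60.1, 130.1 and 114 in E2C embryos, a mean of 85.8 ± 34.5 (SD, n = 5). It was at 2.24 to 12.5 with a median of 4.52 in oocytes, 6.77 to 39.6 with a median of 29.8 in zygotes and 30.4 to 55.6 with a median of 39.5 in L2C embryos. The E2C over zygote value was 3.32 and the E2C over L2C value 2.18, the latter with some overlap of both ranges. The level then stood at 78.3, 77.8, 86.6 and 86.4 in 8-cell embryos and reached 141 to 228 in mESC, its highest stage. Other genes of the actin network were *Actr3* at 30.2, *Fmnl3* at 34.1 and *Shroom2* at 12.0, and those of microtubules and their motors were *Dync1i2* at 43.4, *Tpgs2* at 38.8, *Kif17* at 17.0, *Kif14* at 15.4 and *Hook1* at 15.3, a dynein chain, a subunit of an enzyme that modifies tubulin, a pair of kinesins and a linker to the motor. *Jpt2* at 37.3 completed the group.

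The 9 genes of membrane traffic and import held 247 copies per 100,000 at E2C and 61.0 in oocytes. *Golph3*, a Golgi protein that binds its membrane to the cytoskeleton, was at 57.1, 53.1, 59.6, 29.4 and 54.5 in E2C embryos (mean 50.8), 9.28 to 20.0 with a median of 13.7 in oocytes, 16.0 to 30.8 with a median of 21.1 in zygotes and 7.44 to 32.9 with a median of 13.3 in L2C embryos. E2C embryo 4 stood apart from the other E2C embryos and overlapped the zygotes. *Pde6d*, a carrier of lipid-modified proteins, was at 27.3, 18.5, 33.6, 7.72 and 20.6 in E2C embryos (mean 21.5), 0.464 to 4.20 with a median of 2.73 in oocytes, 0.847 to 14.5 with a median of 4.54 in zygotes and 0 to 7.46 with a median of 3.79 in L2C embryos. *Fam160a1* was at 18.6, 23.1, 20.2, 14.5 and 9.20 in E2C embryos (mean 17.1), 0.516 to 4.18 with a median of 2.06 in oocytes, 1.55 to 7.25 with a median of 2.73 in zygotes and 0 to 5.56 with a median of 2.29 in L2C embryos. Its E2C embryos were all above the other stages, while those of *Pde6d* overlapped the zygotes through embryo 4. The others were *Copz1* at 26.2 and *Arf3* at 15.9, of the coat that carries vesicles within the Golgi and back to the ER, *Kpna3* at 47.4, a nuclear import receptor, *Epn2* at 38.9, an adaptor of endocytosis, *Dennd6a* at 17.2, an exchange factor for Rab proteins, and *Tram1* at 11.5, which acts at the ER translocon.

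The 15 genes of metabolism and mitochondria held 402 copies per 100,000 at E2C and 105 in oocytes. *Cdo1*, the dioxygenase that breaks down cysteine, was at 87.3, 70.2, 60.8, 65.4 and 41.6 in E2C embryos (mean 65.1), 5.68 to 39.6 with a median of 19.2 in oocytes, 8.71 to 44.4 with a median of 27.3 in zygotes and 0 to 5.17 with a median of 3.54 in L2C embryos. *G6pdx*, the first enzyme of the pentose phosphate pathway, was at 54.8, 55.0, 48.9, 45.1 and 51.3 in E2C embryos (mean 51.0), 0 to 17.5 with a median of 1.02 in oocytes, 1.69 to 27.2 with a median of 19.8 in zygotes and 0 to 16.7 with a median of 2.36 in L2C embryos. For *G6pdx* the lowest E2C embryo exceeded the highest of each other stage, and oocyte 6 was the highest oocyte. *Xdh*, which makes uric acid in purine breakdown, was at 9.48, 4.76, 15.1, 10.9 and 14.0 in E2C embryos (mean 10.9), 0.553 to 5.66 with a median of 1.76 in oocytes, 1.28 to 4.54 with a median of 3.61 in zygotes and 0 to 1.78 with a median of 0 in L2C embryos, with no UMI in any 4-cell or 8-cell embryo. Genes of the mitochondrion were *Cs* at 39.9, *Ndufaf4* at 37.5, *Apoo* at 23.0, *Gdap1* at 21.9 and *Mtfr1l* at 14.4, the first being citrate synthase and the second a factor for assembly of respiratory complex I, with *Mrps21* at 19.8 and *Mrpl48* at 15.4 of the mitochondrial ribosome. *Selenow* at 47.0 is a small selenoprotein and *Gda* at 14.6 the guanine deaminase. The remaining ones were *Dcakd* at 15.8, *B4galt4* at 15.03 and *Olah* at 10.4, enzymes related to coenzyme A, sugar transfer and fatty acid release.

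The 6 genes of the ubiquitin, SUMO and proteasome systems were *Psme3* at 40.7, *Sumo3* at 26.8, *Ube2g1* at 25.2, *Rad23b* at 17.3, *Cops2* at 15.4 and *Rnf24* at 12.5, and their oocyte levels were 12.7% to 56.1% of those at E2C. The 4 ion transporters were *Slc30a3* at 20.3, *Slc39a6* at 10.3, *Slc4a8* at 13.1 and *Slc9b1* at 11.9, of which the first and second carry zinc. The 4 genes of survival and autophagy were *Bcl2l1* at 13.6, *Aven* at 10.4, *Tnfaip8* at 13.1 and *Trp53inp2* at 21.4, the first being an inhibitor of apoptosis of the Bcl-2 family. The last 12 genes had other roles or none that is given here: *Dnajc14* at 20.96, *Trpc4ap* at 19.7, *Fam53c* at 17.8, *AC163611.2* at 17.3, *Fam126b* at 16.5 and *Enox1* at 16.1 among those at 16 or more, *Ifit1bl2* at 15.8, *AY512915* at 12.1, *Tex26* at 12.1 and *Mmp2* at 10.6 below that, *AU022751* and *AU015836*. *AY512915* was the only one of the 123 annotated as a long noncoding RNA, the other 122 being protein coding.

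*AU022751* held the highest level of all 123 genes, at 249, 274, 254, 212 and 212 in E2C embryos (mean 240.2), with 75.4 to 213 with a median of 118 in oocytes, 63.9 to 189 with a median of 101 in zygotes and 2.48 to 11.4 with a median of 6.92 in L2C embryos. The highest oocyte reached the E2C range, and the L2C embryos were far below every earlier stage. The split of its reads from those of near-identical copies is uncertain. *AU015836* was at 40.2, 49.9, 38.4, 27.0 and 19.5 in E2C embryos (mean 35.0), 0.847 to 24.2 with a median of 13.2 in zygotes, 0 to 5.56 with a median of 0.930 in L2C embryos and 0 to 10.8 with a median of 0.300 in oocytes, where oocyte 6 was the highest. The lowest E2C embryo was within the zygote range. *AU022751*, *Bmp15*, *G6pdx* and *AU015836* lie on chromosome X, as did 7 of the 123 genes in all by the GENCODE M21 annotation of GRCm38.

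The oocyte level was outside the selection's values, although its ratio to E2C shares the E2C mean. The oocyte mean of a gene was 2.95% to 75.01% of its E2C mean, with a median of 24.1%, and all 123 had an oocyte mean below their E2C mean. None was without oocyte UMIs. The oocyte mean was below 1 copy per 100,000 for 4 genes, 1 to 10 for 95 and 10 or more for 24, and 102 had a UMI in all 10 oocytes. The lowest E2C embryo was above the highest oocyte for 97 of the 123, against 6.30% of all 11682 genes tested, with the E2C mean being part of the selection. The median ratio was 0.246 with the oocytes of run 1 alone, 0.196 with those of run 3 alone and 0.220 without oocyte 6.

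The ratio of oocyte to E2C was set beside those of the other named genes with an E2C mean of 10 or more, sorted by the same limits. In the 64 genes that were at least 2 times the zygote mean but under 2 times the L2C mean, the median ratio was 0.226. In the 904 that were under 2 times the zygote mean but at least 2 times the L2C mean it was 0.894, and in the 639 that did neither it was 0.888. The oocyte mean was below the zygote mean in 88.6% of the 123 genes, 95.3% of the 64, 45.9% of the 904 and 47.3% of the 639. These shares go with the limit on E2C over zygote, which uses the zygote mean itself, and were not tested. Within runs the zygote mean was above the oocyte mean for 106 of the 123 genes in run 1, 97 in run 2 and 88 in run 3. Run 2 held 1 oocyte and 2 zygotes. The counts within runs were not made for other genes, so that no share over all genes stands beside them.

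**Figure D3:**
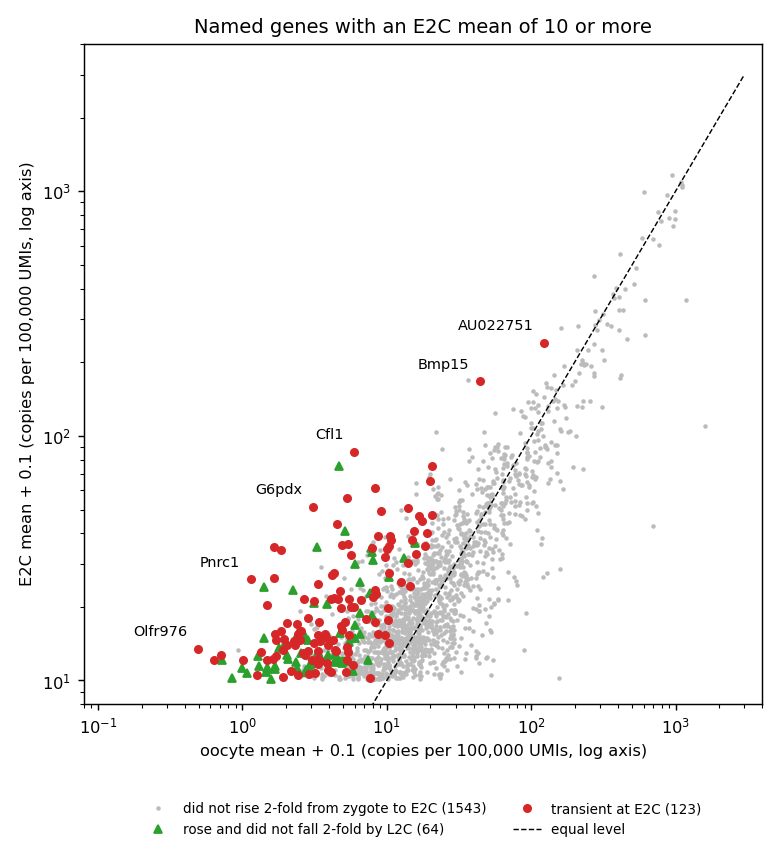
Oocyte mean (x axis) against E2C mean (y axis), both in copies per 100,000 UMIs plus 0.1 on log axes, for the 1730 named genes with an E2C mean of 10 or more. Red circles (123) are the genes transient at E2C, green triangles (64) those also 2-fold above the zygote but not above L2C, grey points (1543) the rest, and the dashed line marks equal levels. All red circles lie above the line.

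A second set of oocytes was in the batch 4 table of isoform counts, with 4 intact oocytes, 6 columns of oocytes split in 2 and 6 of oocytes split in 4. The 109 genes with an isoform there summed to 918 to 1049.7 per 100,000 isoform UMIs in intact oocytes, 839 to 976 in the larger pieces and 805 to 1078 in the smaller ones, so that splitting the oocyte left the sum within overlapping ranges. The oocytes of the other isoform table, normalized separately, held 387 to 689 and E2C cells 1807 to 2418. Gene by gene the result depended on the table set beside batch 4. Against the other isoform table, the batch 4 mean was below the E2C mean for 74 of 109 and within 1 on the log2 scale of the oocyte mean for 68, with 36 higher, 5 lower and a median difference of 0.31. Against the gene table, it was below the E2C mean for 106 and within 1 of the oocyte mean for 83, with 7 higher, 19 lower and a median of -0.20. Levels set across these tables were scaled to different totals. Batch 4 held *Bmp15* at 45.7, beside oocyte means of 44.2 in the gene table and 9.10 in the other isoform table, so that for this gene the isoform tables differed more than the oocytes did between batch 4 and the gene table. *Cfl1* was at 2.38 in batch 4, with oocyte means of 5.86 and 5.75 in the others.

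Whether these genes kept below their oocyte level once the E2C stage had passed was tested on oocyte, 4-cell, 8-cell and 16-cell values. These values did not enter the selection, but the test is not independent of it. The limit on L2C favours genes that are also low at the 4-cell stage next to it. The fit also takes its spread from all 7 stages. The test was limma on log2(value + 1) over embryo means with all 7 stages in 1 fit, and calls needed a log2 fold change above 1 or below -1 with an unadjusted p below 0.01, beside Benjamini-Hochberg adjusted p-values over 11682 genes. All 123 genes passed the filter of 1 copy per 100,000 in at least 4 embryos, with or without the E2C embryos. From oocyte to 4-cell, 66 of the 123 fell and 5 rose, against 22.8% falling and 30.6% rising of all genes tested (53.4% in either direction). The median log2 change was -1.18 over the 123 and 0.18 over all genes, the latter being -0.01 with quantile normalization. A fall was also called for 91.2% of the 904 genes under 2 times the zygote mean at E2C and low at L2C. It was called for 26.9% of the 639 that met neither fold limit and for none of the 64 that kept their level at L2C, of which 64.1% rose. The share that fell was 53.7% in the 123 genes, so that it differed with the limit on the zygote as well as with that on L2C. Why it differed was not tested.

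*Bmp15* had the largest change, with 1.78, 0, 0, 0 and 0.685 in the 4-cell embryos and an estimated log2 change of -4.92 ± 0.43 (SE, adjusted p = 8.87e-16) by limma. *Fmn2* stood at 3.44, 0, 0, 1.15 and 0.622 in 4-cell embryos, a change of -3.30 ± 0.31 (SE, adjusted p = 3.37e-14) by limma. *Cdo1* stood at 0, 10.0, 5.35, 1.25 and 0.598, a change of -3.00 ± 0.45 (SE, adjusted p = 3.08e-08) by limma. Every 4-cell embryo was below every oocyte for *Bmp15* and *Fmn2*, while the groups overlapped for *Cdo1*, with 1 4-cell embryo above 3 oocytes. *Cfl1* changed the other way, from between 2.24 and 12.5 in oocytes to 30.3, 42.1, 33.0, 70.1 and 73.3 in 4-cell embryos, a log2 change of 3.17 ± 0.40 (SE, adjusted p = 2.87e-10) by limma, with no overlap of the groups. The other genes that rose were *Copz1*, *Sumo3*, *Mrps21* and *Mtfr1l*. By role, 8 of 9 oocyte and maternal factors fell, 18 of 24 signalling genes, 9 of 12 with another role or none given, 8 of 16 of RNA binding and translation, 5 of 14 of chromatin, 4 of 10 of actin and microtubules, 3 of 9 of membrane traffic, 6 of 15 of metabolism, 1 of 6 of ubiquitin and proteasome, and 2 of 4 in each of the last 2 roles. The roles were assigned with results known, and differences between them were not tested.

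From 4-cell to 8-cell, 6 of the 123 rose and 10 fell, against 4.47% rising and 10.5% falling of all genes (15.0% in either direction), and 14 of the 16 had an adjusted p under 0.05 by limma. The direction of this small set depended on the scaling: with quantile normalization 10 rose and 2 fell, with edgeR 10 and 5, and with DESeq2 8 and 5, and the median of all genes moved from -0.16 to 0.01 with quantile normalization. *Ybx3*, a cold-shock protein that binds mRNA, was at 8.05, 4.90, 0, 4.85 and 0.622 in 4-cell and 28.2, 27.4, 22.6 and 16.7 in 8-cell embryos, a rise of 2.92 ± 0.59 (SE, adjusted p = 0.000252) on the log2 scale by limma. *Gnas* was at 0.858, 2.45, 0, 1.93 and 0 and then 5.28, 4.57, 19.5 and 9.04, a rise of 2.23 ± 0.40 (SE, adjusted p = 3.83e-05) by limma. In neither gene did the groups overlap. *Tram1* was at 0.770, 2.45, 0, 0 and 0 and then 6.27, 5.41, 1.59 and 5.10, a rise of 2.35 ± 0.45 (SE, adjusted p = 0.000108) by limma with overlapping groups. *Aven*, a regulator of apoptosis, was at 0.770, 0, 3.09, 1.71 and 0 and then 5.98, 5.87, 1.59 and 5.23, a rise of 1.75 ± 0.49 (SE, adjusted p = 0.00838) by limma that was not called without 4-cell embryo 5 (1.37). *Selenow* and *Rad23b* also rose. Those that fell were *Pnrc1*, *Jpt2*, *Dcakd*, *Eif4enif1*, *Spry4*, *Golph3*, *Zfp280b*, *Kmt2d*, *Kpna3* and *Fam126b*, by 1.01 to 1.41 on the log2 scale.

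From 8-cell to 16-cell, 5 of the 123 were called higher and none lower, against 1.90% higher and 1.46% lower of all genes (3.36% in either direction). None of the 123 had an adjusted p under 0.05 by limma, while edgeR called 9 and DESeq2 called 7 by the same limits, all of them higher. *Psme3*, a proteasome activator, was at 7.49, 5.88, 0 and 3.99 in 8-cell and 16.5, 13.1, 5.39 and 4.76 in 16-cell embryos, a log2 change of 1.16 ± 0.39 (SE, adjusted p = 0.144) by limma. *Kpna3* was at 2.22, 2.23, 0 and 0.690 and 6.08, 6.08, 0 and 3.26, with a change of 1.06 ± 0.36 (SE, adjusted p = 0.156) by limma. Their groups overlapped, and without 16-cell embryo 1 the changes were 0.48 and 0.34. *Gng12* was at 1.78, 0.369, 1.59 and 1.07 and then 3.01, 4.19, 4.68 and 1.96, a change of 1.03 ± 0.36 (SE, adjusted p = 0.16) by limma, and *Ddx19a* at 0.774, 0, 0 and 0.710 and then 1.91, 2.03, 2.26 and 1.30, a change of 1.03 ± 0.38 (SE, adjusted p = 0.22) by limma. Both had no overlap between the groups at levels near 1 copy per 100,000. The fifth was *Eif4enif1*. The count of 5 rested on single embryos, since it was 2 without 8-cell embryo 4, 16-cell embryo 1 or 16-cell embryo 2, 3 without 8-cell embryo 3 and 10 without 16-cell embryo 4.

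Over the whole span from oocyte to 16-cell, 74 of the 123 fell and 11 rose, against 24.0% falling and 26.8% rising of all genes (50.8% in either direction), with medians of -1.29 and 0.04 on the log2 scale. *Bmp15* was at 1.74, 0.645, 2.90 and 0 in 16-cell embryos, a change of -4.24 ± 0.38 (SE, adjusted p = 4.36e-15) by limma, and *Fmn2* at 1.60, 0.147, 0 and 0, a change of -3.47 ± 0.28 (SE, adjusted p = 7.73e-17) by limma. *Cfl1* was at 121, 60.4, 77.9 and 72.6, a rise of 3.93 ± 0.36 (SE, adjusted p = 5.65e-15) by limma, and *Ybx3* at 34.4, 61.2, 14.4 and 22.2, a rise of 3.66 ± 0.44 (SE, adjusted p = 7.84e-11) by limma. The other 9 that rose were *Copz1*, *Mrps21*, *Rad23b*, *Gnas*, *Mrpl48*, *Rbpms2*, *Sumo3*, *Aven* and *Mtfr1l*, which include a pair of genes of the mitochondrial ribosome, a SUMO gene and a subunit of the vesicle coat. *Cfl1*, *Ybx3*, *Copz1* and *Mrps21* had 16-cell means of 83.1, 33.1, 18.7 and 15.8, whereas 59 genes had a 16-cell mean below 1. Over the 4 comparisons, edgeR called 68 of the 71, 9 of the 16, 4 of the 5 and 83 of the 85 in the same direction.

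**Figure D4:**
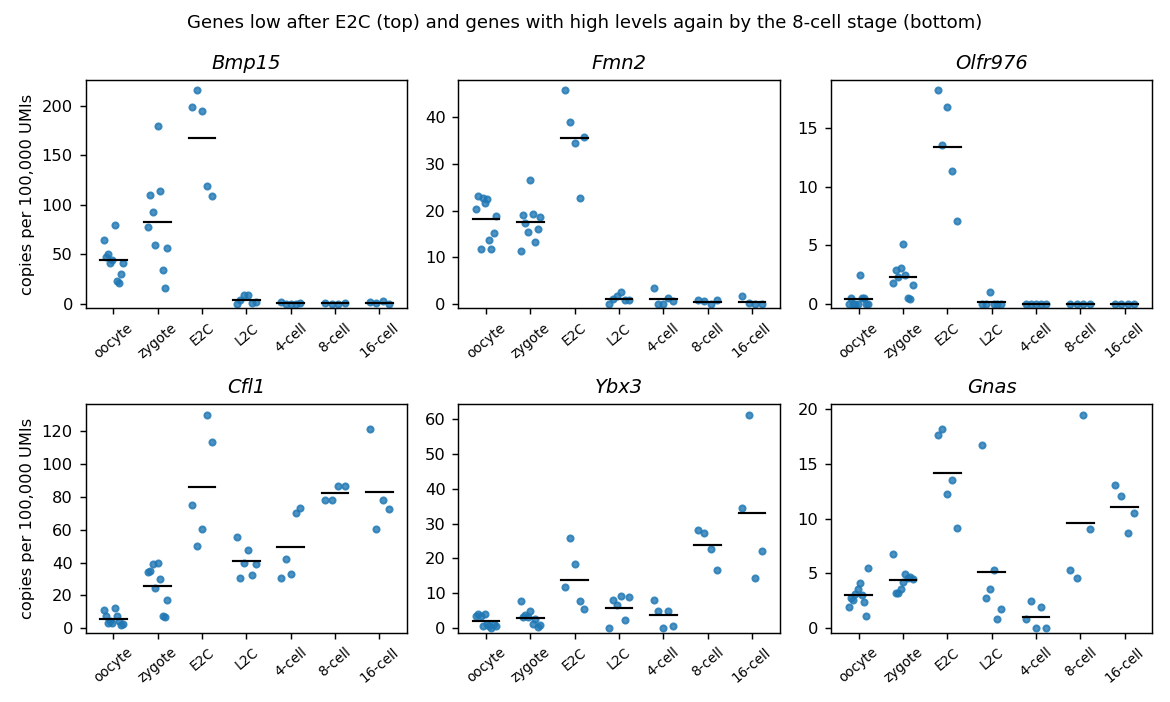
Level in copies per 100,000 UMIs (y axes) of 6 of the genes in each oocyte, zygote and embryo (1 point each) by stage (x axes), with a black line at the mean over embryos. Bmp15, Fmn2 and Olfr976 (top) have 4-cell and later embryos near 0, and Cfl1, Ybx3 and Gnas (bottom) reach means of 82.3, 23.7 and 9.59 at the 8-cell stage.

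In 114 genes the highest stage mean was that of E2C, a count that the selection itself favours. The other 9 were highest in mESC (*Cfl1*, *Copz1*, *Dcakd*, *Cops2* and *Gnas*), at the 8-cell stage (*Selenow* and *Mrps21*) or at the 32-cell stage (*Rad23b* and *Ybx3*). *Ybx3* reached 31.8 to 147 with a median of 55.9 in 32-cell cells, against 3.99 to 8.80 in mESC. *Dcakd* had a mean of 15.8 at E2C, 1.09 at 16-cell and 17.7 in mESC, so that it returned only in the cultured cells. In mESC 61 of the 123 had a mean below 1 copy per 100,000 and 14 a mean of 10 or more.

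The 123 were 0.766% of the named genes, so that a list of this size could be without members at that share, and the counts below are given as a description. Of 36 genes of mRNA deadenylation and decapping, *Pnrc1* was the only member, and of 41 genes of the COPI and COPII vesicle coats *Copz1* and *Arf3* were. From oocyte to 4-cell, 22.8% of all genes tested fell and 30.6% rose, and the counts of the lists are to be read beside these shares. In that comparison 13 of 34 decay genes tested fell and 6 rose, and 20 of 41 coat genes fell and 10 rose. Of 382 genes named Zfp, *Zfp280b* was the only member. None of the 34 measured genes known for activation at the 2-cell stage was a member, nor any of 32 immediate-early genes, 64 replication-dependent histone genes, 56 Trim genes and 57 Usp genes. Of the 2-cell genes, 12 of the 28 tested rose and 5 fell from oocyte to 4-cell, and of the immediate-early genes 4 of 17 rose and 1 fell. Of the others in that comparison, 2 of 17 histone genes rose and 2 fell, 48 of 235 Zfp genes rose and 36 fell, 6 of 33 Trim genes rose and 10 fell, and 15 of 47 Usp genes rose and 12 fell.

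Full-length reads gave the isoforms of 109 of the 123 genes, 942 isoforms in all, with a median of 8 and a range of 1 to 27 per gene. The isoform table, normalized separately from the gene table, held 41.0% of the genes' UMIs in oocytes and 37.9% at E2C, against 66.3% and 57.1% over all genes. The authors filtered isoforms, and why the share was lower for these genes was not tested. Full splice matches (FSM), isoforms that follow an annotated transcript, made up 69.5% of the genes' isoform UMIs in oocytes, 63.9% in zygotes and 61.5% at E2C. Over all genes the FSM share was 73.8%, 73.5% and 71.1%. Incomplete splice matches (ISM), which lack part of an annotated transcript, were 22.5% in oocytes and 27.8% at E2C in the 123 genes, and 15.9% and 18.8% over all genes. Isoforms with a splice site outside the annotation (NNC) were 5.58% and 8.12% in the 123, and 5.41% and 5.65% over all genes. These shares weight genes by their UMIs, and *AU022751* alone gave 2367 of the 7327 UMIs in oocytes and 1938 of the 10254 at E2C, with a leading FSM isoform. Averaged over genes, the FSM share was 40.7% in oocytes and 38.9% at E2C, the ISM share 39.6% and 42.7%, and the NNC share 14.4% and 14.5%. In single embryos the FSM share of the 123 genes ran from 58.1% to 78.6% over oocytes and from 58.2% to 65.2% over E2C embryos, so that the ranges overlapped.

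The leading isoform of a gene was the same in oocytes and E2C for 42 of the 67 genes with at least 20 isoform UMIs in both (62.7%), against 77.6% in the class of 904 named above, 76.5% in that of 639 and 66.7% in that of 64. A leading isoform is less certain where few UMIs are counted. The classes were not matched for isoform UMIs, and the differences between them were not tested. The share of the isoform leading at E2C changed most from oocytes in *Enox1*, *Bcl2l1*, *Xdh*, *Slc9b1*, *Tnfaip8* and *Eef2k*. *Bcl2l1* and *Xdh* kept their leading FSM isoform, of 2457 and 1031 bases, but its share was 85.2% and 80.8% in oocytes and 47.6% and 46.6% at E2C, over 21 to 58 UMIs. *Eef2k* went from an FSM isoform of 804 bases (23.9% of 46 oocyte UMIs) to an ISM isoform of 913 bases, which held 15.2% in oocytes and 44.8% of 96 UMIs at E2C. In the other 3 the leading end of the transcript differed. Isoforms that led in oocytes could change as much, as in *Dync1i2*, named after its values were seen, where 1 held 34.8% of 66 UMIs in oocytes and 0 of 249 at E2C.

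Isoforms whose 3′ ends lay within 50 bases of the next were joined into 1 end group. The leading end group was the same in oocytes and E2C for 62 of the 67 genes (92.5%), beside 92.6%, 91.7% and 80.6% in the same 3 classes. Of the 62, 12 had a single end group and could not differ. A leading end can keep its place while its share moves, and the share of the E2C-leading end differed by more than 20 percentage points for 14 of the 67 genes, against 69 of 755, 57 of 541 and 10 of 36 in the 3 classes. The median absolute difference was 4.86 points in the 67 genes and 2.34, 3.23 and 8.29 points in the classes. Here too the classes were not matched for isoform UMIs, and the differences between them were not tested. Among genes with the same leading end, chosen here after their values were seen, that end held 44.2% in oocytes and 90.8% at E2C for *Smarca2*, 57.6% and 94.8% for *Dync1i2*, 94.5% and 62.6% for *Bmp15*, and 85.5% and 49.3% for *Fmn2*. The ends of *Nup214* and *Slc9b1*, 2 of the 5 exceptions, are shown because their shares at the 2 stages had separate intervals and both ends could be placed on annotated transcripts. The last 30 bases before each end, on GRCm38 (mm10) and on the plus strand, were read from GENCODE M21 transcripts, with the polyadenylation hexamer AATAAA or its variant ATTAAA in capitals where the 30 bases hold one.
Nup214 end leading in oocytes: cattgtatacataatgAATAAAcaaatctt
Nup214 end leading at E2C: tATTAAAgtgtttggtctggttctgcacag
Slc9b1 end leading in oocytes: atataaaatgcagatgataaggctaacagt
Slc9b1 end leading at E2C: cttatttgttctttgctatattacactttt

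The first *Nup214* end, at chr2:31998668-31998697, is in the last exon of a shorter noncoding transcript, and the second, at chr2:32052340-32052369, is in the 3′ UTR of the full coding transcript, 53672 bases downstream. The upstream end held 57.6% of 151 oocyte UMIs, 23.2% of zygote UMIs and 9.15% of 164 E2C UMIs. The downstream end held 39.7% in oocytes (95% interval 31.9 to 48.0, exact binomial, counting error only), 60.7% in zygotes and 79.9% at E2C (72.9 to 85.7). In single oocytes its share was 14.3% to 77.8% with a median of 27.9%, and in single E2C embryos 66.7% to 91.3% with a median of 80.0%. The *Nup214* isoform leading at E2C, with 26.2% of UMIs, was an ISM isoform of 589 bases and 4 exons. The downstream end is thus shared with the coding transcript, but isoforms there need not be the whole coding mRNA. Both *Slc9b1* ends, at chr3:135357795-135357824 and chr3:135358277-135358306, are in an exon of transcripts annotated as retaining an intron, 482 bases apart. The downstream one held 13.9% of 36 UMIs in oocytes (4.67 to 29.5) and 55.2% of 58 at E2C (41.5 to 68.3). *Enox1* moved the other way, to an end 988 bases upstream that held 4.29% of 70 oocyte UMIs (0.893 to 12.0) and 75.8% of 99 E2C UMIs (66.1 to 83.8). Both *Enox1* ends, at 77580198 and 77579210 on chromosome 14, lay before the annotated end of the gene at 77721760. Its leading isoforms had 3 exons, with 1753 bases in oocytes and 791 at E2C. *Tnfaip8* went to an end 764 bases downstream, with 25.5% (14.3 to 39.6) and 56.3% (37.7 to 73.6), and *Golph3* to one 915 bases upstream, with 9.09% (1.12 to 29.2) and 28.6% (15.7 to 44.6).

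**Figure D5:**
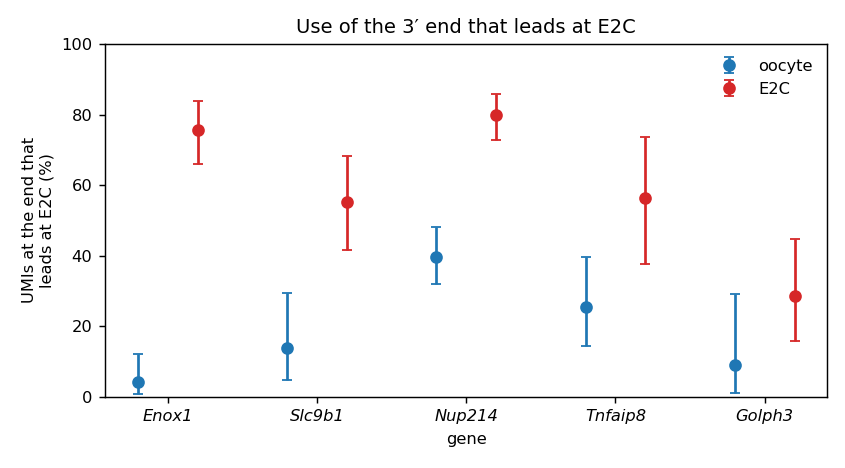
Share of a gene's isoform UMIs at the 3′ end that leads at E2C (y axis, percent) in oocytes (blue) and at E2C (red) for the 5 genes whose leading end differed (x axis), with bars for the exact 95% binomial interval of the pooled UMIs. The intervals are apart for Enox1, Slc9b1 and Nup214, with shares of 4.29% and 75.8% for Enox1, and they overlap for Tnfaip8 and Golph3.

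Both hexamers were searched on the transcript strand in the last 30 bases of the leading E2C end, for the ends that could be placed on an annotated transcript. AATAAA was in 28 of 54 ends of the transient genes (51.9%) and in 657 of 1110 ends of all named genes compared (59.2%), and ATTAAA in 20.4% and 14.3%. The motif TTTTAT, a form of the element that directs lengthening of tails in the maturing egg, was in the last 100 bases of 8 of 54 (14.8%) and 283 of 1110 (25.5%). A match is a description of these letters only, and no difference between the shares was tested. *Nup214* had AATAAA at the oocyte's end and ATTAAA at that of E2C, and neither *Slc9b1* end had either hexamer.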

How the data were processed

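Cells, oocytes and oocyte fractions were read as barcoded full-length cDNA. The authors made consensus reads, assigned barcodes and UMIs with scISA-Tools, aligned with minimap2 to mm10, assigned genes with gffcompare, and collapsed and classified isoforms with cDNA_Cupcake and SQANTI3, removing isoforms seen in few cells. Their deposited gene and isoform values are copies per 100,000 UMIs of a cell, a CPM on a smaller base, which was recorded as a score for some columns, and both tables were normalized separately. The deposited batch 4 values, recorded as a score, are whole UMI counts per isoform. The deposited isoform annotation gave the positions of the 3′ ends.

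Each non-zero value was a whole multiple of 1 UMI within 0.1 (100% of values). Cells held 4985 to 389775 UMIs (median 38914), and depth limits levels near 1 UMI. Cells were picked singly and no doublet caller was run. The tables name cells and not barcodes, so shared barcodes were not counted.

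The 123 genes, their roles and all gene lists were chosen with earlier results of these data known. Every gene is named with its E2C mean. Values per embryo are given for the 10 with the highest E2C mean, the 6 with the largest smaller fold, the 4 with the highest and 4 with the lowest oocyte level relative to E2C, and up to 4 called genes with the largest change in each comparison. Isoforms are named for the 6 whose leading isoform changed its share most. Embryo means as log2(value + 1) were fitted with limma 3.58.1 (mean trend, array weights, 7 stages), after a filter of 1 copy per 100,000 in 4 embryos, in R 4.3.3. Calls were tried on simulated counts that held no effect of run or capture, so that the trial does not show how the calls hold under such effects. Alternatives were edgeR 4.0.16 and DESeq2 1.42.0 on the recovered UMI counts, other pseudocounts and filters, quantile normalization, no weights, adjusted p, other selection limits and leaving out each embryo. Splits by run were added after seeing the data. The run is the number that ends each barcode in the study's list of cells, taken here as the run. Other steps used Python 3.11.15, numpy 2.4.6, pandas 2.3.3, scipy 1.17.1 and matplotlib 3.10.9. Coordinates are GRCm38, with GENCODE M21.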

Additional observations from a re-analysis of the deposited data

Results flagged for a closer look

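Among the values of the described genes and their sum, 13 of 76 groups of 4 to 10 samples held an oocyte, zygote or embryo far from the others by Dixon's criterion, which chance meets in about 1 in 20 groups. The groups share samples and are not independent. Oocyte 6, the only oocyte of run 2, was the highest of 10 in 8 of the 13. Its summed level of the 123 genes was 1278 copies per 100,000 UMIs. Its levels were 24.6 for *Rbpms2*, 23.3 for *Kdm2b*, 19.6 for *Paip2b* and 17.5 for *G6pdx*. It also held *AU015836* at 10.8, *Olfr976* at 2.50 and *Csrnp2* at 2.08. With 1 oocyte in that run, the run and the oocyte cannot be told apart.

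The other 5 were in different samples. *AU022751* was at 189 in zygote 7, the highest of 9, and *Fam160a1* at 7.25 in zygote 5, also the highest of 9. *Xdh* was at 5.66 in oocyte 3 and *Chfr* at 11.1 in oocyte 10, each the highest of 10. *Golph3* was at 29.4 in E2C embryo 4, the lowest of 5.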

How the results depend on the processing

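Of the 123 genes selected, the count was 351 with folds of 1.5, 19 with folds of 3, 213 with an E2C mean of 5, 52 with one of 20, 218 with run 3 zygotes alone, and 113 to 136 without each E2C embryo. From 8-cell to 16-cell the 5 calls became 8 at a pseudocount of 0.1, 0 at 5, 3 with no filter, 3 with no weights, 0 by adjusted p and 9 with edgeR (DESeq2 7, quantile normalization 5), and 2 to 10 without single embryos. At a pseudocount of 5 the calls were 21 from oocyte to 4-cell, 3 from 4-cell to 8-cell and 31 from oocyte to 16-cell, against 71, 16 and 85. Without single embryos these were 63 to 72, 12 to 17 and 78 to 87, and with the oocytes of 1 run alone or without oocyte 6 63 to 71 and 77 to 87. Averaged over genes in place of UMIs, isoform shares in oocytes were 40.7% FSM, 39.6% ISM, 5.35% NIC (new combinations of known splice sites) and 14.4% NNC, and at E2C 38.9%, 42.7%, 3.89% and 14.5%. The leading isoform was the same in 22 of 32 genes at 50 UMIs or more. Of the named genes' tests under other settings, 395 kept their call, 45 lost it and none changed direction. Causes were not tested. No paired analysis was possible because embryo numbers give no link between embryos of different stages.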
